A study of Mus musculus with 2 samples.

Results

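The nuclear RNA export factors described here are 6 mouse genes, the receptor genes Nxf1, Nxf2, Nxf3 and Nxf7 and the cofactor genes Nxt1 and Nxt2, out of 20284 genes with a named probe on the array. They were chosen by gene family and by their processed-signal ratios, those of Nxf7 and Nxf3 being among the most extreme of the array, so their own ratios are given as a description, with no test. Each gene was represented by 1 probe, spotted once per array, and all 6 passed the filter on low signals. The Nxf genes are relatives, and how far their probes share signal was not tested.

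In mammals, NXF1 and its small partner NXT1 form the main receptor that carries spliced mRNA through the nuclear pore. Adapter proteins of the TREX complex load the receptor onto mRNA, it then binds pore proteins directly, and an RNA helicase at the cytoplasmic face releases the mRNA. The other Nxf genes are related to Nxf1 and are known for expression limited to few tissues, among them the germline. In Drosophila, relatives of this family act in the silencing of transposons by piRNAs.

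Expression was measured in B6C3F1 mouse embryonic stem cells (ESCs, pluripotent cells of the early embryo) at passage 26, grown on growth-arrested embryonic fibroblasts (feeders) with LIF. Cells labelled HDAC6 overexpression were labelled with Cy5 and wild-type (WT) cells with Cy3, and each of 2 Agilent arrays received total RNA of both. HDAC6 is a mainly cytoplasmic deacetylase of tubulin and other proteins. How it was overexpressed, and in how many clones, is not stated in the labels. The dye orientation was the same on both arrays, so dye effects remain in every ratio. The labels call the arrays biological replicates, but nothing says that they came from separate cultures, so p-values measure only the spread between these arrays, which may be technical.

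Of the spots other than controls, 69.3% to 69.4% stood well above background with overexpression and 68.8% to 69.6% in WT. The limma test covered 16069 genes and called 51.2% of them (adjusted p under 0.05), 3413 as higher (21.2%) and 4807 as lower (29.9%) with overexpression, so a call in itself was common. The ratios of the arrays differed with an SD of 0.275 on the log2 scale over these genes. For the targeted gene Hdac6 the brighter probe read 0.157 and -0.038 (log2 ratio, replicates 1 and 2) and the other probe 0.183 and -0.0055, and the brighter probe's mean of 0.060 ± 0.14 (SD, n = 2) did not pass (limma adjusted p = 0.64). Whether either probe matches the introduced construct was not tested, so the overexpression is known here only from the labels, and each direction is that of the channel labelled HDAC6 overexpression. Of 10 ESC markers, all were measured and 3 were higher and 5 lower. Pou5f1 (0.22 ± 0.16, limma adjusted p = 0.12) and Sox2 (0.18 ± 0.09, limma adjusted p = 0.15) did not pass. The pluripotency factor genes Klf4 and Esrrb rose (0.97 ± 0.017 and 0.73 ± 0.14), as did Utf1 (0.34 ± 0.16). Fbxo15, Dppa5a and Zfp42 fell (-0.74 ± 0.069, -0.53 ± 0.062 and -0.50 ± 0.027). Values of these genes under other settings are not given here. The Nodal co-receptor gene Tdgf1 fell too (-1.11 ± 0.045), with -0.86 (limma adjusted p = 3.3e-05) under normexp with loess. With normexp and median centring without loess, Tdgf1 had -0.15 (limma adjusted p = 0.18). The pluripotency factor gene Nanog had -0.29 ± 0.11, with -0.044 (adjusted p = 0.70) under normexp with loess and 0.92 without loess. Markers of the primitive endoderm, an extra-embryonic lineage, were higher for 16 of 17 genes and lower for 1. Their summed processed signal was 216517 and 225817 in the overexpression channel and 39605 and 45581 in the WT channel. The basement membrane genes Sparc and Col4a1, both bright, had 1.02 ± 0.057 and 2.83 ± 0.071.

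The upstream sequences of 3 receptor genes show how unlike their promoters are. For Nxf3, the receptor gene with the lowest ratio, no promoter window was available. Each is 300 bases from RefSeq (GRCm38.p6), 250 before to 50 after the first listed transcription start, with CG dinucleotides, the sites of DNA methylation, in capitals. Nxf7 is the receptor gene with the highest ratio, Nxf2 lay lower in the overexpression channel, and Nxf1 differed little between the channels.
Nxf7, chrX:135598732-135599031, minus strand: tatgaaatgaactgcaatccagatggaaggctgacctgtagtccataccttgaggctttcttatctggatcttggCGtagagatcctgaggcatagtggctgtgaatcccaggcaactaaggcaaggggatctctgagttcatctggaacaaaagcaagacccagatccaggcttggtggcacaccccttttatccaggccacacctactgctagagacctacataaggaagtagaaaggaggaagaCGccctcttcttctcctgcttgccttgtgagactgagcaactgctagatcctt
Nxf2, chrX:134964705-134965004, minus strand: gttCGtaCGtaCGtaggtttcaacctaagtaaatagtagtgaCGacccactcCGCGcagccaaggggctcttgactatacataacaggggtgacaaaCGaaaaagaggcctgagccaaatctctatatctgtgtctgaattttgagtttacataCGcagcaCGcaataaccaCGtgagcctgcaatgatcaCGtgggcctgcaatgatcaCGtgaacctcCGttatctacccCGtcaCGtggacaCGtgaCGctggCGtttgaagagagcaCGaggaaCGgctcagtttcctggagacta
Nxf1, chr19:8756853-8757152, plus strand: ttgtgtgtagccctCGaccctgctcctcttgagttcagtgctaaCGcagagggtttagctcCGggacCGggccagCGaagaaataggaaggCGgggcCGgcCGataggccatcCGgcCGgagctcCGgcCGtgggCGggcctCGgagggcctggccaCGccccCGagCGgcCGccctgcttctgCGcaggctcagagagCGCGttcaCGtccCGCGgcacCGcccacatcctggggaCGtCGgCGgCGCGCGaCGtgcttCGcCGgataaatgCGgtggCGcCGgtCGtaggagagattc
The Nxf7 window held 2 CG dinucleotides, fewer than the median of 7 over 32851 promoter windows, and 14.1% of all windows held fewer. The Nxf2 window held 20 and the Nxf1 window 38, more than 73.5% and 95% of all windows. Of the cofactor genes, Nxt1 had 20 in its first window and Nxt2 had 8. The letters AGATAA or TGATAA, on either strand, are forms of the motif of GATA transcription factors, and its other forms were not searched. These letters stood at position -190 relative to the start in the Nxf7 window and at -28 in the Nxf2 window, and they were not in the Nxf1 window. Of all promoter windows 18.6% held them, and of the 10 windows of the 5 matched members 4 did, although windows of 1 gene can overlap. Both Nxf7 windows held the same site, and the second Nxf2 window held none. A match is a description of these letters and does not show binding.

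**Figure D1:**
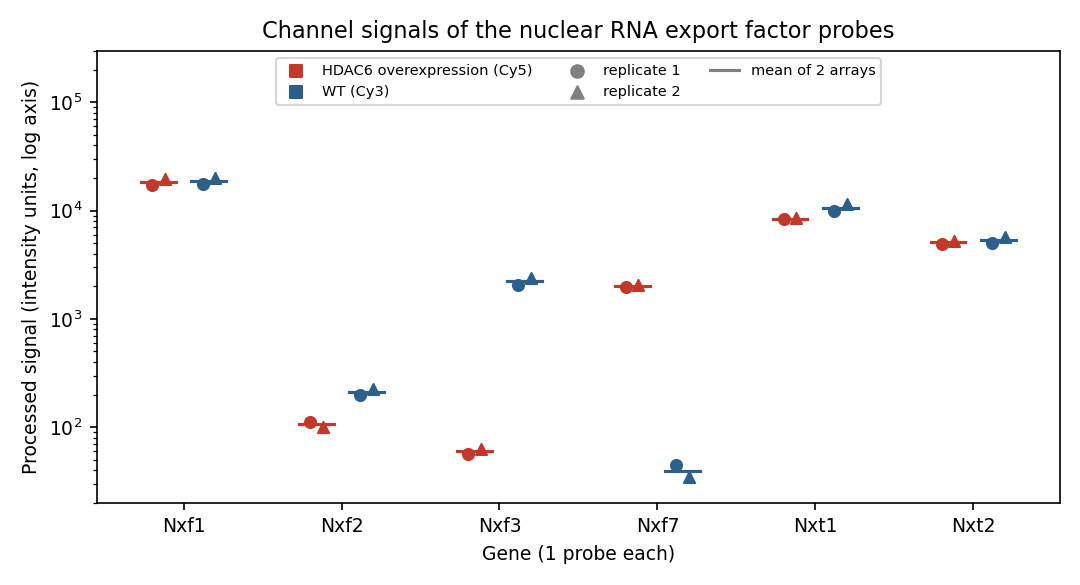
Processed signal (log axis) of the 1 probe of each gene in the HDAC6 overexpression channel (red) and the WT channel (blue), with a point for each array and a line for the mean of 2 arrays; heights of different probes are not comparable. The Nxf7 probe averages 2027 in the overexpression channel and 39.6 in the WT channel, and the Nxf3 probe shows the opposite order.

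Nxf1 encodes the general mRNA export receptor. Its probe had processed signals (background-subtracted and dye-normalized intensities) of 17425 and 19637 in the overexpression channel of replicates 1 and 2, against 17616 and 20125 in the WT channel. The channels overlapped, and the log2 ratio of overexpression over WT was -0.016 and -0.035, a mean of -0.026 ± 0.014 (SD, n = 2). This near-equality rests on the dye normalization, because the raw signal was 33539 and 38456 in the overexpression channel against 21601 and 23716 in the WT channel. With normexp background correction and median centring in place of loess, which leaves the trend of the ratio with brightness, the log2 ratio was 0.49.

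Nxf7 encodes a receptor-like member of the family in the mouse. Its processed signal was 1982 and 2072 in the overexpression channel, against 44.8 and 34.5 in the WT channel. Both overexpression values lay far above both WT values, and the WT signal was well above background on replicate 1 but not on replicate 2. The log2 ratio of the measured signals was 5.47 and 5.91, a mean of 5.69 ± 0.31 (n = 2), but the replicate 2 value is set against a signal not well above background. With the lowest WT signal of any probe well above background in its place on that array, Nxf7 was 44.2-fold higher in replicate 1 and at least 47.5-fold higher in replicate 2, a mean of at least 45.8-fold. In raw medians the probe read 2931 and 3140 over a local background of 34 and 33 in the overexpression channel, and 139 and 116 over 44 and 44 in the WT channel. Because the WT signal was dim, the size of the ratio depends on the background correction, and normexp with loess gave 4.26 (19.1-fold).

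Nxf3 encodes another receptor-like member of the family. It had 56.1 and 63.2 in the overexpression channel, against 2076 and 2371 in the WT channel, with all 4 values well above background. The WT values lay far above the overexpression values on both arrays. The log2 ratio was -5.21 and -5.23, a mean of -5.22 ± 0.013 (n = 2), or 37.3-fold lower, and it was the lowest of the 16069 genes. The arrays differed by 0.018, a smaller gap than for most genes, since 6.95% of genes had a smaller one, against 91.3% for the gap of Nxf7, which includes the dim WT signal of replicate 2. The raw medians were 137 and 158 over a background of 51 and 61 in the overexpression channel, and 3270 and 3322 over 56 and 57.5 in the WT channel. Normexp with loess gave -4.17, or 18.0-fold lower.

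Nxf2 encodes a further member, known in the mouse from the testis. Its processed signal was 113 and 99.7 in the overexpression channel, against 197 and 227 in the WT channel, and both channels were well above background on both arrays. Both overexpression values lay below both WT values. The log2 ratio was -0.81 and -1.19, a mean of -0.996 ± 0.27 (n = 2), and normexp with loess gave -0.62, a smaller difference for this dim probe.

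The cofactor genes encode small proteins that pair with the receptors. Nxt1, the usual partner of NXF1, had 8373 and 8476 in the overexpression channel, against 9870 and 11498 in the WT channel. Its channels did not overlap, and the log2 ratio was -0.24 and -0.44, a mean of -0.34 ± 0.14 (n = 2). Nxt2, its X-linked relative, had 4930 and 5235 in the overexpression channel, against 4984 and 5740 in the WT channel. The Nxt2 channels overlapped, with a log2 ratio of -0.016 and -0.13 and a mean of -0.074 ± 0.083 (n = 2).

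From highest to lowest, the mean ratios ran Nxf7, Nxf1, Nxt2, Nxt1, Nxf2, Nxf3. The values of Nxf1 and Nxt2 overlapped over the 2 arrays, and none of the other 14 of 15 pairs of members did. How often pairs of other genes overlap was not computed, so no result is read from this count. The difference between Nxf3 and Nxf7, Nxf3 minus Nxf7, was -10.7 in replicate 1 and -11.1 in replicate 2 on the log2 scale. Of the 6 members, 1 was at least 2-fold higher on both arrays (background 3.03% of genes) and 1 at least 2-fold lower on both (background 4.39%). As these ratios chose the family, nothing follows from these counts.

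**Figure D2:**
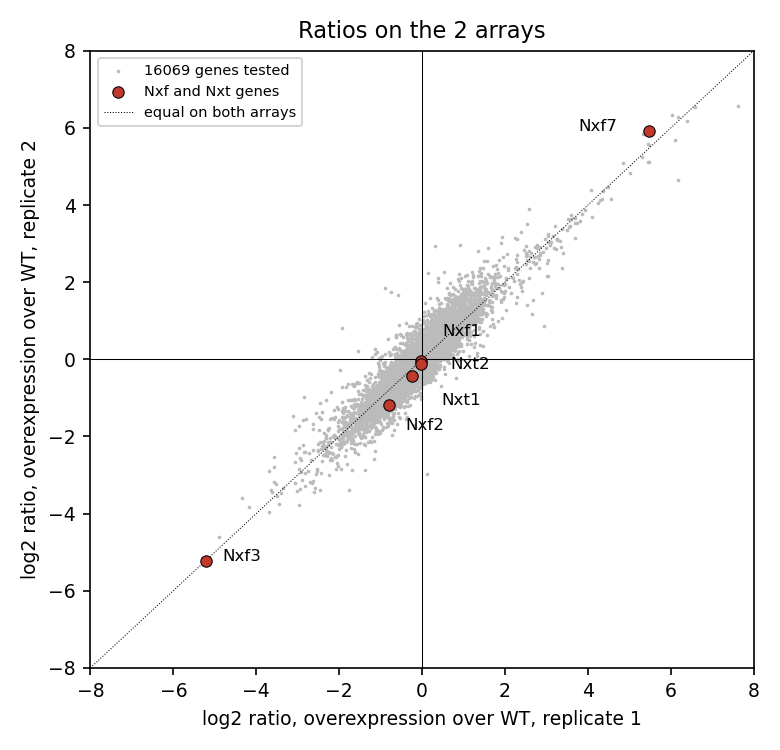
Log2 ratio of overexpression over WT in replicate 1 (horizontal) and replicate 2 (vertical) for 16069 genes (grey) and the 6 Nxf and Nxt genes (red); the dotted line marks equal ratios. Nxf7 lies at 5.47 and 5.91, Nxf3 at -5.21 and -5.23, and the other 4 members between -1.19 and 0.

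Genes with a channel pattern most like that of Nxf3 and Nxf7 were found by the Euclidean distance between 4 log2 signals (2 channels on 2 arrays), each centred on its gene's mean. Nearest to Nxf3 were Dnajc5g (distance 0.499), a DnaJ-family chaperone gene, Ceacam9 (1.33), of the carcinoembryonic antigen family, and Pdzph1 (1.39). In overexpressing cells all 3 were too dim to stand well above background on either array, and they were at least 12.7-fold, 5.12-fold and 4.52-fold lower. These bounds set the brighter channel against the lowest processed signal of any probe well above background in the dim channel, or the probe's own signal where higher. Nearest to Nxf7 were Pax6os1 (distance 0.118), Habp2 (0.227), the gene of a secreted serine protease, and Cubn (0.276), an endocytic receptor gene of the visceral endoderm. In WT cells Pax6os1 and Habp2 did not stand well above background on either array, and their ratios were at least 39.6-fold and at least 36-fold higher. Cubn had 22872 and 22759 in the overexpression channel against 514 and 484.6 in the WT channel, a log2 ratio of 5.52 ± 0.055. These genes were picked for sharing the pattern of Nxf3 or Nxf7, so their values are a description, with no test. Except for Cubn, the distances use signals not well above background, and the distances to Nxf7, that of Cubn included, also use the dim WT signal of Nxf7, so no order is read from them.

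Other genes of nuclear export, from 6 lists by role, were then compared. Of 79 listed genes 76 were measured, and 7 (9.21%) were higher and 19 (25%) lower, against 21.2% and 29.9% of all genes tested. Their median log2 ratio was -0.046, against -0.061 over all genes, and the extremes were -1.15 and 0.63, so none came near the ratios of Nxf7 and Nxf3. The split is tied to the normalization, because median centring without loess gave 33 higher and 11 lower and a median of 0.19. Of these 76 genes, 1 was at least 2-fold lower on both arrays and 0 at least 2-fold higher, against 4.39% and 3.03% of all genes. The counts of higher and lower genes in each list below stand against 21.2% and 29.9% of all genes. With few genes per list, no result is read from them.

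Among adapters and TREX subunits, which load the receptor onto mRNA, 2 of 21 were higher and 5 lower. Zc3h11a, a zinc finger protein gene of TREX, rose (0.63 ± 0.16, limma adjusted p = 0.0047), while the TREX subunit gene Thoc5 fell (-0.61 ± 0.14, adjusted p = 0.0047). The adapter gene Alyref2 fell (-0.71 ± 0.0036, adjusted p = 0.0020), but had 0.28 with median centring without loess. Of 6 measured genes of TREX-2, which links transcription to the pore, Eny2 rose (0.39 ± 0.012, adjusted p = 0.016) and Pcid2 fell (-0.40 ± 0.050, adjusted p = 0.015). With the mean over probes Eny2 had 0.24 and did not pass (adjusted p = 0.065).

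Of 18 measured genes of the pore and of mRNA release, 3 were higher and 3 lower. The scaffold nucleoporin gene Nup133 had processed signals of 13055 and 14326 in the overexpression channel, against 24997 and 25891 in the WT channel. It fell (-0.90 ± 0.059, adjusted p = 0.0011), as did Nup160 of the same subcomplex (-0.48 ± 0.0012, adjusted p = 0.0076), but with median centring without loess Nup133 had -0.39 and Nup160 had -0.19, which did not pass (adjusted p = 0.092). Nup98, the gene of a nucleoporin with the repeats that export receptors bind, rose (0.53 ± 0.018, adjusted p = 0.0055).

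In the list of the exon junction complex, which marks spliced mRNA, and of mRNA surveillance, 1 of 11 measured genes was higher and 5 were lower. Upf3a, of nonsense-mediated decay, had the lowest ratio of the export lists, with 7543 and 8470 in the overexpression channel, against 17490 and 18058 in the WT channel (-1.15 ± 0.086, adjusted p = 0.00057). The core subunit gene Magohb fell (-0.85 ± 0.15, adjusted p = 0.0017), and so did the core helicase gene Eif4a3 (-0.72 ± 0.31, adjusted p = 0.0069), which had 0.091 with median centring without loess.

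Of 7 genes of cap and poly(A) binding, 1 was lower and 0 higher, namely Zc3h18 (-0.32 ± 0.13, adjusted p = 0.039). With median centring of the processed ratios, and without the filter on dim probes, it did not pass (adjusted p = 0.063 in both), which left 0 lower genes in the list. Of 13 genes of the other export receptors and the Ran cycle, 4 were lower and 0 higher. Xpo1, the receptor gene for proteins with a nuclear export signal, fell (-0.81 ± 0.064, adjusted p = 0.0015), with -0.39 under median centring without loess. Rangap1 (-0.38 ± 0.15, adjusted p = 0.024) and the microRNA precursor export receptor gene Xpo5 (-0.33 ± 0.032, adjusted p = 0.027) fell too, and had 0.056 and 0.018 with median centring without loess.

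**Figure D3:**
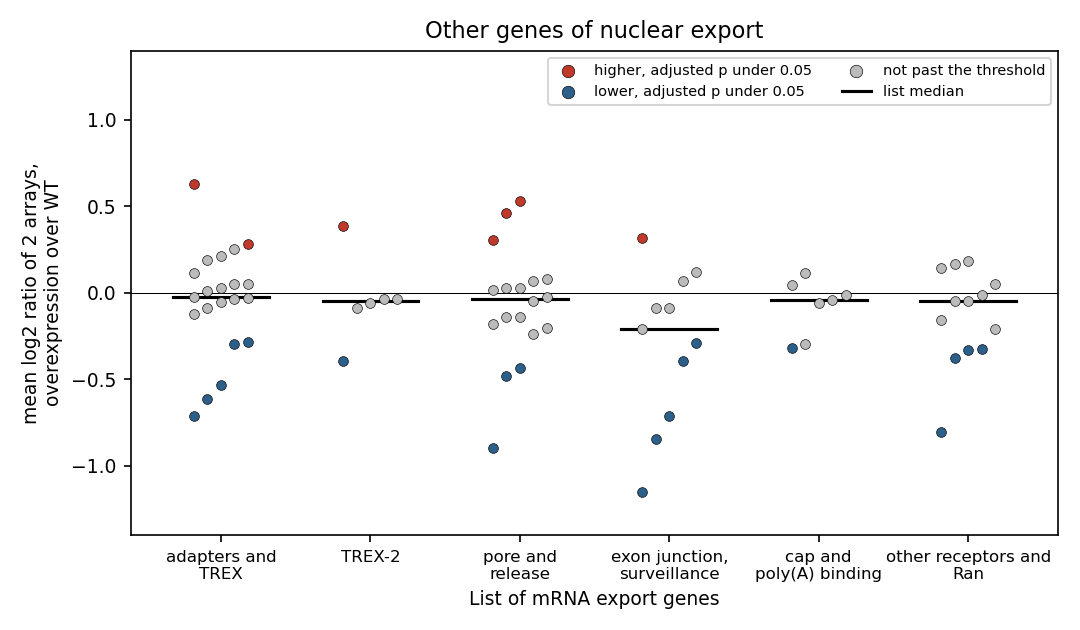
Mean log2 ratio (2 arrays, overexpression over WT) of each measured gene in 6 lists of nuclear export genes, coloured by limma call, with a line at the list median. The points lie between -1.15 (Upf3a) and 0.63 (Zc3h11a).

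Nxf2, Nxf7, Nxf3 and Nxt2 lie on the X chromosome in this order, Nxt1 on chromosome 2 and Nxf1 on chromosome 19. In the RefSeq table of GRCm38.p6, 21 annotated genes stand between Nxf2 and Nxf7 and 16 between Nxf7 and Nxf3. For each member the 5 nearest measured genes on either side that are not members were compared, 51 genes in all. Of these, 11 (21.6%) were higher and 23 (45.1%) lower, against 21.2% and 29.9% of all genes. Nxf2 and Nxf7 lie within each other's neighbourhood and were not counted as neighbours. All 10 neighbours of Nxf2 and all 10 of Nxf7 were lower, with 8 genes in both groups. The high ratio of Nxf7 thus stood among lower genes. The lower ratio of Nxf2 stood among genes of like direction, apart from Nxf7. The medians of the neighbours of Nxf2 and of Nxf7 were -0.94 and -0.79 on the log2 scale.

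In gene order around Nxf2 came Armcx4 (-0.75 ± 0.0084), Armcx1 (-0.96 ± 0.056), Armcx6 (-1.16 ± 0.15, adjusted p = 0.00068), Armcx3 (-0.65 ± 0.055) and Armcx2 (-0.57 ± 0.082), of a family of armadillo-repeat genes. Between Nxf2 and Nxf7 lay the zinc finger gene Zmat1, with 254 and 292 in the overexpression channel against 653 and 788.5 in the WT channel (-1.397 ± 0.051, adjusted p = 0.00033). Tcp11x2, of a testis-expressed family and the measured gene next after Nxf7, had 54.4 and 75.2 in the overexpression channel against 398 and 354 in the WT channel. It fell most of the 51 neighbours (-2.55 ± 0.45, adjusted p = 0.00031). Tmsb15a, a thymosin beta gene, followed (-1.37 ± 0.037, adjusted p = 0.00034). Tceal6 lay between Zmat1 and Nxf7 (-0.92 ± 0.080). Members of the Armcx, Tceal and Tmsb15 families are close relatives, and how far their probes share signal was not tested.

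With the members left out, the genes around Nxf2 and Nxf7 were followed outward until a measured gene was not lower. This run held 14 lower genes, and it ended at Gla (0.28) on one side and Arxes2 (-0.15) on the other. Nxf2 and the higher Nxf7 lie inside it and are not among the 14. The run was drawn after its values were seen and by the calls themselves, so its count is a description, with no test. All 14 had ratios below 0 on both arrays, and 5 passed a limma test against a 1.5-fold change.

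Around Nxf3 the neighbours were mixed, with 2 higher and 5 lower of 10. Bex2 and Bex4, which flank Nxf3, had -0.21 ± 0.081 and -0.44 ± 0.0042, far from the -5.22 of Nxf3. Around Nxt2, 2 were higher and 4 lower of 10. Tex13b, a testis-expressed gene, rose (3.20 ± 0.17, adjusted p = 4.4e-05), and the potassium channel regulator gene Kcne1l fell (-1.86 ± 0.25, adjusted p = 0.00030). With the mean over probes Kcne1l had -1.26 (limma adjusted p = 0.00094), a smaller fall than that of its brightest probe. Around Nxt1, 5 were higher and 3 lower of 10, and the endoderm transcription factor gene Foxa2 rose 30.5-fold (4.93 ± 0.13, adjusted p = 1.9e-05) and the thrombomodulin gene Thbd rose too (1.34 ± 0.028, adjusted p = 0.00036). Around Nxf1, 2 were higher and 0 lower of 10.

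**Figure D4:**
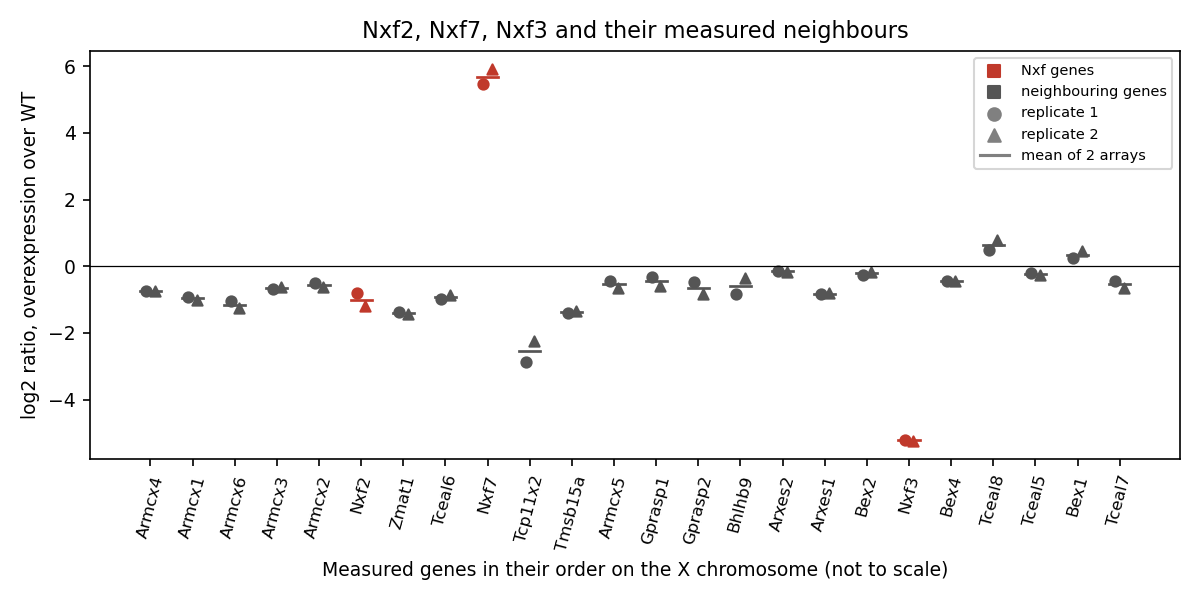
Log2 ratio of overexpression over WT for Nxf2, Nxf7 and Nxf3 (red) and their nearest measured neighbours (grey) in X-chromosome gene order, with a point for each array and a line for the mean. Nxf7 stands at 5.69 and Nxf3 at -5.22, while the neighbours lie between -2.55 and 0.65.

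Over the X chromosome as a whole, 128 of 590 measured genes (21.7%) were higher and 202 (34.2%) lower, near the 21.2% and 29.9% over all genes, with a median log2 ratio of -0.10 against -0.061. The 4 X-linked members are among the 590.

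Markers of other cell types moved in the same arrays as the ratios of the family. Of all genes tested, 21.2% were higher and 29.9% lower. Beside the primitive endoderm genes, 11 of 12 fibroblast markers, genes of the cell type used as feeders, were higher and 0 lower. Their summed signal was 223395 and 285644 in the overexpression channel and 120268 and 104065 in the WT channel, with Vim at 0.93 ± 0.54 and Acta2 at 1.43 ± 0.71. Trophectoderm markers were higher for 8 of 9 measured genes and lower for 0, with summed signals of 75526 and 83054 in the overexpression channel and 55769 and 57370 in the WT channel. Among these, the keratin genes Krt18 and Krt8 had 0.31 ± 0.13 and 0.47 ± 0.32. Germline markers were higher for 1 of 12 measured genes (8.33%) and lower for 4 (33.3%), the lower share being near that of all genes. Their summed signals were 68327 and 68852 in the overexpression channel and 44996 and 51977 in the WT channel. Rhox5, an X-linked homeobox gene, rose (1.502 ± 0.13), and without it the other 11 genes summed to 34129 and 32347 in the overexpression channel and 33648 and 38257 in the WT channel. The piRNA pathway gene Mael had 0.30 ± 0.27. The 4 lower genes were Stra8 (-0.99 ± 0.33) and Sycp1 (-0.96 ± 0.032), both of meiosis, Tex101 (-0.64 ± 0.073), and Tdrd1, of the piRNA pathway, which did not stand well above background in overexpressing cells and was at least 1.54-fold lower. In these lists every measured gene was well above background in both channels on at least 1 array, except 1 primitive endoderm gene in the WT channel and 1 germline gene in the overexpression channel. Whether each gene marks only the cell type of its list was not tested. The part of these markers in the ratios of Nxf7, Nxf3 and Nxf2 was not tested either. In bulk RNA, fewer cells of a type and less RNA per cell cannot be told apart.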

How the data were processed

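Per the labels' protocols, the RNA (Trizol extracts) went through linear amplification before labelling. Agilent Feature Extraction 11.5.1.1 quantified the scans, per the file headers. The deposited files hold raw median intensity values per spot and channel, and processed intensity values that were background-subtracted and dye-normalized. The deposited log10 ratio equals the processed Cy5 over Cy3 signal. The deposited series table holds log2 values that correlated at -1 with the scanner ratios with a slope of -1, so it runs as WT over overexpression and has column medians of -0.0074 and 0.062.

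Members and lists were chosen with earlier results of these data known. There were 55681 non-control probes, and unversioned accessions in RefSeq (GRCm38.p6) gave 26762 of them 1 symbol, 0 several and 28919 none, which are unnamed here. The array grid was built on mm9, so the table served only for names and gene order. From the processed signals, log2(Cy5/Cy3) was computed without outlier spots (269 and 313), 0 spots being saturated. Each gene took its brightest probe, kept where both arrays showed it well above background in the same channel, leaving 16069 genes. The mean ratio was tested against 0 with limma 3.58.1 in R 4.3.3 (eBayes, two-sided, Benjamini-Hochberg). The prior had 4.6 degrees of freedom beside 1 residual one. In 20 simulated draws with noise from the fitted prior (16069 genes, 200 changed), recovery was 95.5% for a log2 change of 1 and 13.1% for one of 0.5. A median of 7.91% of the simulated calls were false. Far fewer genes changed there than the 51.2% called in the data, which makes the threshold stricter. These rates therefore do not carry over to the data. Precision is limited by the number of arrays.

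Named are all members, up to 3 genes per export list with the largest change past the threshold, at most 8 neighbours past it with a log2 ratio of at least 1 in size, the 3 nearest patterns, the 2 brightest of each marker list, and Hdac6. Other neighbours and markers given by name were chosen after their values were seen. Alternatives were normexp (offset 50) with loess or with median centring alone, centring of the processed ratios, the series table, the mean over probes, no filter, outlier spots kept, a test against a 1.5-fold change, and each array alone.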

Additional observations from a re-analysis of the deposited data

How the results depend on the processing

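The precision of every value is limited by 2 arrays, of 1 dye orientation, and the ratios of Nxf7 and Nxf3 also by the dim signal in one channel. Nxf7, Nxf3, Nxf2, Nxt1 and Nxt2 kept their direction under every setting run, and the deposited series table gave the same values as the processed signals. Normexp with loess gave log2 ratios of -4.17 for Nxf3, 4.26 for Nxf7 and -0.62 for Nxf2. Normexp with median centring alone, an alternative chosen after seeing the data, gave -4.25, 4.18 and -0.65 for these and 0.49 for Nxf1. It also gave 33 export genes higher and 11 lower (median 0.19), 17 neighbours higher, an X chromosome median of -0.055, and values turned round for Alyref2 (0.28), Eif4a3 (0.091), Rangap1 (0.056), Xpo5 (0.018) and Nanog (0.92). Hdac6 had 0.52 there (limma adjusted p = 0.0010), an upward move like that of Nxf1, whose probe had a similar processed signal. Tdgf1 (-0.15, adjusted p = 0.18) and Nup160 (-0.19, adjusted p = 0.092) no longer passed there. Why these values moved was not tested. Calls were also lost for Xpo5 (adjusted p = 0.055) and Zc3h18 (adjusted p = 0.063) with centring of the processed ratios, for Eny2 (adjusted p = 0.065) with the mean over probes, and for Zc3h18 (adjusted p = 0.063) and Krt18 (adjusted p = 0.066) without the filter. Nanog, at the threshold, passed with the processed signals and the series table but not under normexp with loess (adjusted p = 0.70), centring (0.11), the mean over probes (0.051), no filter (0.079) or outlier spots kept (0.050). Centring the processed ratios gave 0.017 for Nxf1, -5.18 for Nxf3, -0.059 for the X chromosome median and -0.0031 for the export median. The mean over probes gave -0.091 and -0.056 for these medians. Without the filter on dim probes 4 export genes were higher and the X chromosome median was -0.052. The test against a 1.5-fold change gave 667 genes higher and 942 lower in all, 0 and 1 of the export genes, 3 and 7 of the neighbours, 35 and 59 of the X chromosome genes, and 5 lower genes in the run around Nxf2 and Nxf7. Under the other settings 13 or 14 genes of that run were lower. With single arrays no test was possible, and counts of calls were not computed. The X chromosome median then ranged from -0.116 to -0.112 and the export median from -0.065 to -0.053. Each ratio is formed within an array. No paired analysis was possible because both channels of an array enter as 1 ratio and there is 1 group of ratios.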
